A study of Ovis aries with 8 samples.

Results

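The genes of haemoglobin and of red cell precursors were examined in perirenal (kidney) fat of 8 male lambs. These were 9 genes, AHSP, HBA, HBB, HBG, ALAS2, GATA1, SLC4A1, CA2 and EPOR, out of 9155 genes that had a probe set annotated to them alone on the array. Their 15 probe sets were taken by gene symbol from the platform annotation, out of 24016 probe sets tested. The genes were chosen on earlier results of these same arrays: AHSP, under its older symbol, is on the study's own list of genes past its P and fold thresholds. The difference in AHSP is therefore given as a description with no test, and the figures for the other members describe genes picked beside it.

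The lambs were 4 of the NmatCpat genotype, which inherit the Callipyge mutation from the sire, and 4 NmatNpat lambs, which carry the normal allele on both chromosomes. Sheep with the NmatCpat genotype develop large hindquarter muscles and a lean body after birth. All lambs were Dorset/Suffolk/Rambouillet cross-breds sampled at 12 weeks, and the fat depot was hybridised to the Affymetrix Bovine Genome array, 1 array per lamb. The comparison addressed whether the mutation changes transcripts in a tissue other than muscle. The array carries cattle sequences, so a sheep transcript that differs from the cattle probe can read low.

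Haemoglobin is assembled in red cell precursors from alpha-like and beta-like globin chains, each holding a haem group. AHSP is a chaperone that keeps free alpha chains soluble until they meet a beta chain. GATA1 is the transcription factor that switches on most of these genes, ALAS2 starts haem synthesis in red cell precursors, SLC4A1 (band 3) is the anion exchanger of the red cell membrane, CA2 is the carbonic anhydrase abundant in red cells, and EPOR is the receptor of erythropoietin. After birth red cells are made in the bone marrow, and a fat sample contains them through its blood vessels.

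Signals are given on the log2 scale after quantile normalization over the 8 arrays. Where a gene had several probe sets, the one with the highest mean stood for the gene. NmatCpat minus NmatNpat differences come from limma with 95% intervals, and a probe set was counted as past the thresholds at P of at most 0.05 and a fold over 1.5. Of the 15 probe sets, 12 had a mean below the median of all probe sets, 6.09. With all probe sets ranked by mean and cut into 4 equal bins, the median SD within a genotype was 1.07 in the dimmest bin, against 0.233 in the brightest. The differences are therefore also given after 16 signal units were added before the log, which shrinks differences between dim values.

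The tissue read as fat. The adipocyte fatty acid binding protein FABP4 had a log2 mean of 13.72 in NmatCpat and 13.69 in NmatNpat lambs. Leptin, LEP, was dim, at 4.79 in NmatCpat and 5.05 in NmatNpat lambs. The other adipocyte markers measured lay above the median of all probe sets. The precursor transcripts GATA1, ALAS2 and SLC4A1 were dim and read between 1.55 and 5.78 in every lamb. On their brightest probe sets the globin chains read 5.85 to 6.85 (HBA), 4.40 to 6.54 (HBB) and 5.96 to 8.12 (HBG). AHSP read 1.91 to 6.70. Of 2 further precursor markers, RHAG, the Rh-associated glycoprotein of the red cell membrane, read 5.44 to 5.97 and EPB42, a protein under that membrane, read 3.06 to 4.71. Whether red cell precursors were in the samples was not tested. The name of the gene group describes what the genes are known for, not a cell population shown to be in the samples.

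AHSP was higher in NmatCpat fat, and every NmatCpat lamb lay above every NmatNpat lamb. Its probe set read 5.56, 6.70, 6.08 and 5.63 in NmatCpat animals 1 to 4, against 1.91, 4.89, 3.44 and 4.84 in NmatNpat animals 1 to 4. The means were 5.99 ± 0.526 in NmatCpat and 3.77 ± 1.41 in NmatNpat lambs (SD, n = 4 each), a difference of 2.22 (95% interval 0.67 to 3.77), or 4.67-fold. Because AHSP was picked for passing on these arrays, neither this interval nor the one with the offset is read as a test. The NmatNpat lambs spread over a wider range than the NmatCpat lambs, and NmatNpat animal 1 was the lowest of all.

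On the deposited linear scale AHSP gave 50.2, 102, 66.4 and 47.7 signal units in NmatCpat lambs, against 4, 29.6, 10.6 and 27.2 units in NmatNpat lambs. These are small signals beside array medians of 65.3 to 72.6 units. With the offset of 16 the difference was 1.32 (0.60 to 2.03), or 2.49-fold. Over 18 alternative settings the AHSP difference ran from 1.32 to 2.60, given as values only because the gene was known from these arrays, and it fell outside the fit limited to probe sets above the median mean.

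The array of NmatNpat animal 1, the lamb with the lowest AHSP, also carried neuronal transcripts. NEFL, a neurofilament subunit, read 12.12 there and 0.54 to 6.09 on the other arrays. The mean deviation of the 3 neuronal markers was between -1.90 and -0.55 in NmatCpat lambs, against 6.91 in NmatNpat animal 1 and -1.40 to 0.92 in the other NmatNpat lambs. Without that lamb AHSP differed by 1.60. On the array of NmatCpat animal 4, 2 of 4 muscle markers had their highest signal of the 8 lambs, ACTA1 at 9.92 and MYL2 at 7.03, while CKM, at 9.22, had its lowest and TNNT3 read 4.49. Without both of these lambs AHSP differed by 1.73. In a bulk tissue, fewer cells of a type and less RNA per cell cannot be told apart.

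None of the 8 probe sets for globin chains was past the thresholds with all lambs. HBA, the alpha chain that AHSP binds, had a single probe set. It read 5.85, 6.27, 6.44 and 6.28 in NmatCpat animals 1 to 4, against 6.19, 6.44, 6.85 and 6.70 in NmatNpat animals 1 to 4. The genotypes overlapped, with means of 6.21 ± 0.251 in NmatCpat and 6.55 ± 0.291 in NmatNpat lambs (SD, n = 4 each). The HBA difference was -0.34 (95% interval -0.83 to 0.16), which leaves out a change of 2-fold in signal either way. Its deposited signals were 60.9 to 116.8 units, beside array medians of 65.3 to 72.6. How well this cattle probe set follows the sheep alpha chain was not tested. It kept this sign in all 19 alternatives run, between -0.48 and -0.22, and passed the thresholds in none.

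**Figure D1:**
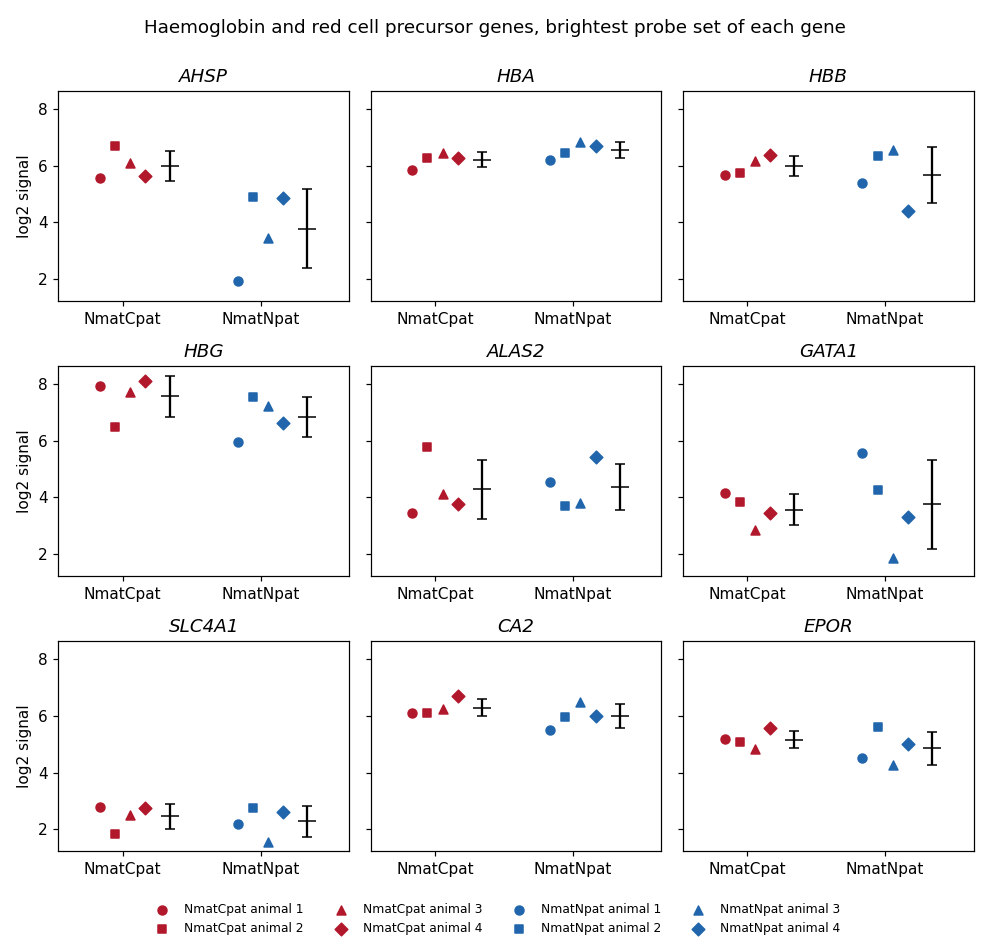
Log2 signal of the brightest probe set of each of the 9 genes in each lamb (vertical axis), with NmatCpat in red and NmatNpat in blue, 1 symbol shape per animal number, and the mean ± SD of 4 lambs in black beside the points. AHSP is the gene whose 4 NmatCpat points (5.56 to 6.70) all lie above the 4 NmatNpat points (1.91 to 4.89), while in the other 8 panels the genotypes overlap.

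HBB, the adult beta chain, had 4 probe sets whose differences ran in both directions. The brightest read 5.67, 5.73, 6.16 and 6.39 in NmatCpat lambs, against 5.39, 6.34, 6.54 and 4.40 in NmatNpat lambs. It averaged 5.99 ± 0.344 in NmatCpat and 5.67 ± 0.981 in NmatNpat lambs, a difference of 0.32 (-0.78 to 1.41). NmatNpat animal 4 was the lowest, and without it the HBB difference was -0.10. The other HBB probe sets, from the brighter to the dimmer, differed by -0.05, -0.37 and -0.84. The third, at -0.37, ranged from 0.44 to 4.94 within the NmatCpat lambs alone. The fourth, at -0.84, was past the thresholds without NmatNpat animal 2, at -1.13, and without NmatNpat animal 3, at -1.11, but not with all 8 lambs.

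HBG is annotated as the gamma chain, the fetal beta-like chain of cattle. Its brightest probe set read 7.94, 6.49, 7.73 and 8.12 in NmatCpat lambs, against 5.96, 7.55, 7.22 and 6.64 in NmatNpat lambs. Of the 4 NmatCpat lambs, 3 were above all NmatNpat lambs, and NmatCpat animal 2 lay among the low ones. The means were 7.57 ± 0.735 in NmatCpat and 6.84 ± 0.698 in NmatNpat lambs, and the difference of 0.73 (-0.34 to 1.80) was within the spread. Without NmatCpat animal 2 it was 1.09 and past both thresholds, and without NmatNpat animal 1 it was 0.44. The other HBG probe sets differed by 0.96 and 0.63, also higher in NmatCpat lambs.

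The 7 probe sets named HBB or HBG cannot be read as 2 separate genes. The 2 brighter HBG probe sets and the second HBB probe set carry a suffix that marks probes matching other sequences too. The fourth HBB probe set carries a suffix that marks probes shared by several transcripts. In 2 cases 1 cattle database entry gave both a probe set annotated HBB and one annotated HBG. Sheep carry further beta-like genes beside HBB in assembly ARS-UI_Ramb_v3.0, among them HBBC, whose chain replaces the adult one in some sheep during anaemia. Which beta-like chain of the sheep each probe set measured was not tested.

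The precursor genes proper overlapped between the genotypes. ALAS2 read 3.45, 5.78, 4.13 and 3.75 in NmatCpat lambs, against 4.54, 3.68, 3.80 and 5.44 in NmatNpat lambs. One lamb of each genotype was high, and the difference was -0.09 (-1.45 to 1.28). GATA1 read 4.14, 3.83, 2.86 and 3.44 in NmatCpat lambs, against 5.58, 4.26, 1.87 and 3.29 in NmatNpat lambs. The highest and the lowest GATA1 value were both from NmatNpat lambs, and the difference was -0.18 (-1.89 to 1.52). These intervals still hold changes of more than 2-fold in both directions, so the arrays do not show that either gene was alike between genotypes.

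SLC4A1 read 1.83 to 2.77 in NmatCpat lambs, against 1.55 to 2.75 in NmatNpat lambs. It differed by 0.18 (-0.58 to 0.95). CA2, which many tissues also express, read 6.10, 6.12, 6.24 and 6.72 in NmatCpat lambs, against 5.50, 5.95, 6.51 and 6.01 in NmatNpat lambs. Its means were 6.29 ± 0.290 in NmatCpat and 5.99 ± 0.413 in NmatNpat lambs, and the CA2 difference was 0.30 (-0.30 to 0.89). The intervals of HBA and CA2 left out a 2-fold change in signal either way. That of SLC4A1 did too, but its deposited signals were 2.7 to 7.5 units, at percentile 5.08 of all probe sets by mean, so nothing is read from it about the transcript.

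EPOR had a pair of probe sets from 1 database entry that ran in opposite directions. The brighter one read 5.17, 5.08, 4.83 and 5.58 in NmatCpat lambs, against 4.52, 5.62, 4.26 and 5.00 in NmatNpat lambs, a difference of 0.31 (-0.43 to 1.06). The dimmer one read 2.28, 2.37, 3.36 and 3.14 in NmatCpat lambs, against 3.69, 4.54, 2.42 and 4.52 in NmatNpat lambs, a difference of -1.004 (-2.19 to 0.18). Without NmatNpat animal 3 the dimmer one passed the thresholds at -1.46, so no direction is given for EPOR.

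**Figure D2:**
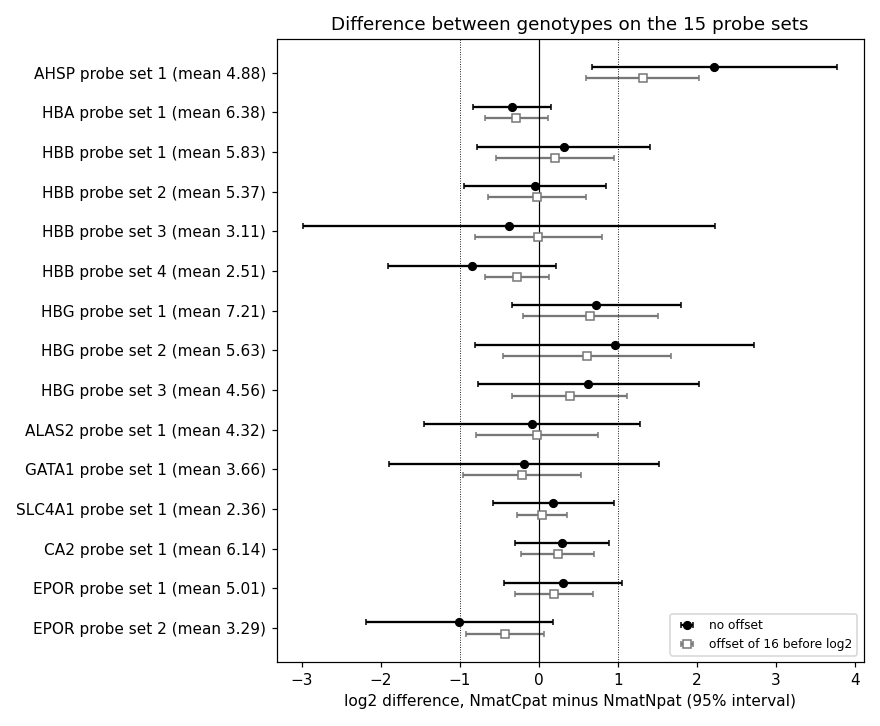
Difference in log2 signal between NmatCpat and NmatNpat lambs for each of the 15 probe sets (horizontal axis, points with 95% intervals from limma), numbered from the highest mean of each gene, without an offset (black circles) and with 16 units added before the log (open squares). Dotted lines mark 2-fold, and the intervals run from -2.98 to 2.23 at their widest, on the third HBB probe set; AHSP, at 2.22 without and 1.32 with the offset, was chosen for its difference on these arrays and is drawn as a description.

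Across the group, 1 of the 15 probe sets, that of AHSP, was past the thresholds, beside 3.93% of all probe sets (943 of 24016). By direction, 2.04% of all probe sets were higher and 1.88% lower past the thresholds. AHSP was also the 1 member probe set without overlap, beside 2.74% of all probe sets, or 1.41% with NmatCpat above. With the offset of 16 the count was again 1 of 15, beside 2.84% of all. Since AHSP was known to be past the thresholds, nothing is read from these counts.

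The 9 genes were split, 6 higher and 3 lower in NmatCpat lambs, with a median difference of 0.30 beside 0.01 over all probe sets. With the offset the median was 0.19, without NmatNpat animal 3 it was 0.11, without NmatCpat animal 4 it was 0.16, and without NmatCpat animal 4 and NmatNpat animal 1 it was 0.089. When all probe sets of a gene were averaged, the median of the 9 genes was -0.09, so the group as a whole has no settled direction. By probe set 8 were higher and 7 lower. No probe set of the array had an adjusted p under 0.05 in the limma fit (0% called), while P before adjustment was 0.05 or less for 4.66%. With the offset 1 probe set did, 0.00416% of all, that of KITLG, which is not a member. The limma adjusted p of the 14 member probe sets other than AHSP lay between 0.983 and 0.997.

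The lambs were not ordered in 1 way by these genes. The median deviation of the 9 genes from their means was highest in NmatCpat animal 4, at 0.56, and lowest in NmatNpat animal 3, at -0.53, and NmatNpat animal 1, at -0.44. NmatNpat animal 3 nevertheless had the highest HBA and HBB signal of the 8 lambs. NmatNpat animal 1 had the lowest signal for 3 of the genes and the highest for GATA1. In NmatNpat animal 2, 7 of the 9 genes lay above their own mean.

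**Figure D3:**
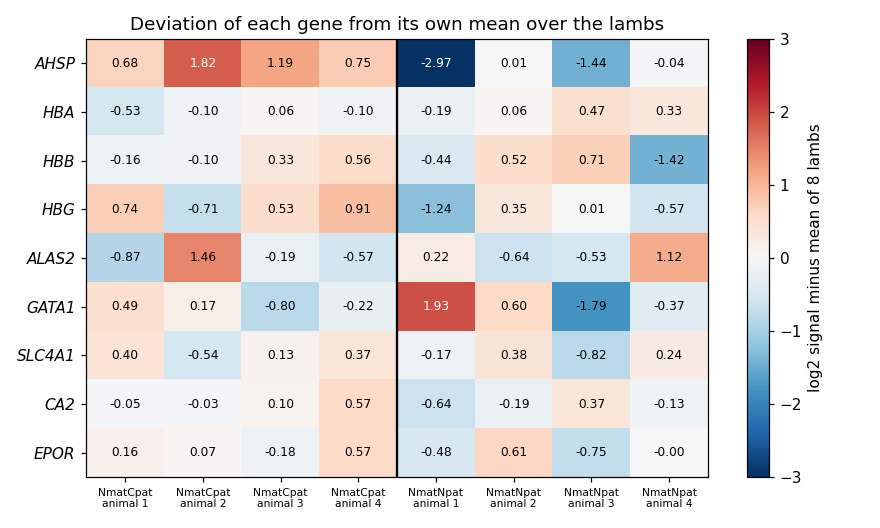
Deviation of the log2 signal of each of the 9 genes (rows) from its own mean over the 8 lambs in each lamb (columns, NmatCpat on the left, NmatNpat on the right), red above and blue below the mean. AHSP is above its mean in the 4 NmatCpat lambs and falls to -2.97 in NmatNpat animal 1, where GATA1 is at 1.93, and no lamb is on 1 side of the mean for all 9 genes.

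Whether the members followed each other from lamb to lamb was read from 15 relations over the 8 lambs, of HBG and AHSP with the other members. HBG, with the brightest member probe set, had Pearson's r = 0.58 with HBB (rho = 0.48) and 0.51 with AHSP (rho = 0.41), with exact permutation p of 0.131 and 0.202 and adjusted p of 0.433 for both. Without NmatNpat animal 1 the r of HBG with AHSP was -0.003. AHSP had r = -0.20 with HBA (rho = -0.26, exact permutation p = 0.625) and 0.12 with HBB (rho = 0.17, exact permutation p = 0.769).

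The brightest HBG probe set and ALAS2 ran in opposite directions, with r = -0.74 (exact permutation p = 0.0373) and rho = -0.76 (exact permutation p = 0.0368). Neither passed adjustment over the 15 relations (adjusted p of 0.409 and 0.552). Without NmatNpat animal 1 and NmatCpat animal 2, the lambs farthest from the median of HBG, r was -0.81. Over deviations from the genotype means it was -0.83. With 1 lamb left out r ran from -0.89 to -0.69. The exact permutation p stayed under 0.05 without NmatNpat animal 1. Without any 1 of the other lambs it was above 0.05, from 0.0514 (NmatNpat animal 3) to 0.097 (NmatCpat animal 1, where r was weakest). The other HBG probe sets, from the brighter to the dimmer, had r of -0.52 and -0.11 with ALAS2. The 2 brighter HBG probe sets had r = 0.87, while the third HBG probe set had r = 0.06 with the brightest, so lamb to lamb differences were not shared by all probe sets of that name.

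Probe sets with a mean above the median were ranked by how closely they followed HBG and AHSP over the 8 lambs. Among 7936 probe sets with 1 gene symbol and a mean above the median, the highest r with HBG were those of CLUAP1 (0.97), PCDH12 (0.95), MAVS (0.94), ORC6, GFM1, SPDL1, SLC4A4 and COL4A3 (0.92). The highest r with AHSP, on the offset scale, were those of LUC7L3 (0.94), UTS2R (0.94), NET1, ATPSCKMT, AKAP8L, ACSF2, ATL2 and STOML2 (0.92). No member was among either 8, but 12 of the 15 member probe sets had a mean below the median and could not enter. Nothing is therefore read from their absence. With 8 lambs and so many probe sets these r are a description only.

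Beyond the 9 members, 63 further genes of red cells, haem and iron were read on 9 lists that had been written with earlier results in view. Of these, 5 were higher and 1 lower past the thresholds, or 9.52%, beside 2.91% of all genes on their brightest probe set (1.39% higher and 1.52% lower). Nothing is read from this share, because the lists were written with results of these same arrays known. The median difference of the 63 was 0.11. None had an adjusted p under 0.05 in the limma fit without the offset. The 6 genes were spread over 5 lists, and 4 of them had means below the median of all probe sets.

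In haem synthesis, ALAD, the enzyme that joins 5-aminolevulinate into porphobilinogen, was higher in NmatCpat lambs. It read 9.94, 10.23, 9.69 and 9.59 in NmatCpat lambs, against 9.39, 9.50, 8.80 and 9.18 in NmatNpat lambs, with no overlap and a difference of 0.65 (0.12 to 1.17). It was no longer past the thresholds without NmatCpat animal 2, at 0.52, or without NmatNpat animal 3, at 0.51. The other 6 enzymes measured were not past the thresholds, with 0.06 for FECH, which inserts the iron, and -0.16 for ALAS1, the form of the first enzyme used outside red cells.

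SLC25A38, which brings glycine into mitochondria for haem synthesis, was the 1 gene of 9 on the iron list past the thresholds. It read 5.79, 5.79, 5.35 and 6.09 in NmatCpat lambs, against 4.86, 4.72, 5.27 and 5.24 in NmatNpat lambs, a difference of 0.73 (0.22 to 1.25) with no overlap. With the offset it was 0.53, under the fold threshold, and without NmatNpat animal 1 and NmatCpat animal 4 it was 0.57 and not past P. The transferrin receptor TFRC, through which red cell precursors take up iron, differed by 0.07 and the mitochondrial iron carrier SLC25A37 by 0.19.

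Among the other globins, HBM, the alpha-like mu chain, read 5.08, 4.35, 4.29 and 3.66 in NmatCpat lambs, against 3.84, 2.77, 4.04 and 3.14 in NmatNpat lambs. The genotypes overlapped, and the difference of 0.90 (0.01 to 1.79) was at the edge of the threshold: with the offset it was 0.43 and was not past it, nor was it without NmatCpat animal 1 (0.66), 2 (0.89) or 3 (0.92) or NmatNpat animal 2 (0.67) or 4 (0.80). HBE1, an embryonic chain, differed by 0.29, the muscle globin MB by 0.30 and CYGB, cytoglobin, by -0.22. In the red cell membrane list 1 of 10 genes passed, EPB41, a protein of the membrane skeleton. It read 5.10, 6.66, 6.91 and 5.31 in NmatCpat lambs, against 5.66, 3.59, 4.94 and 2.97 in NmatNpat lambs, a difference of 1.71 (0.12 to 3.29) with overlap. EPB41 is also expressed outside red cells, and it was no longer past the thresholds without any 1 of 4 lambs, NmatCpat animal 2 (1.48) or 3 (1.41) or NmatNpat animal 2 (1.48) or 4 (1.26).

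On the erythropoietin list, KITLG, the ligand of the KIT receptor of blood precursors and other cells, had the smallest p. It read 8.02, 7.99, 7.55 and 7.97 in NmatCpat lambs, against 5.91, 6.06, 5.74 and 5.83 in NmatNpat lambs, without overlap. The difference was 1.996 (1.59 to 2.40), with a limma adjusted p of 0.085 over all probe sets, and it was past the thresholds in all 19 alternatives. Its receptor KIT differed by -0.14. EPO, erythropoietin itself, read 1.26, 1.31, 0.89 and 1.32 in NmatCpat lambs, against 1.32, 4.05, 2.31 and 2.35 in NmatNpat lambs, a difference of -1.31 (-2.51 to -0.11). These EPO signals are very dim, and with the offset the difference was -0.31 and not past the thresholds. EPO was past them without NmatNpat animal 1 (-1.71) or 2, the highest lamb (-0.80), and not without any 1 of the other 6 lambs (-1.37 to -1.21). SOCS2, a feedback inhibitor of cytokine receptors, differed by 0.52, under the fold threshold.

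The other 4 lists had no gene past the thresholds: 5 erythroid transcription factors (median 0.24, MYB at -0.55), 6 genes of haem and haemoglobin clearance (median -0.09, with haptoglobin, HP, at 1.13), 5 red cell enzymes (median -0.13, PRDX2 at -0.48) and 6 other carbonic anhydrases (median 0.13, CA13 at 0.50). HP read 9.97, 10.52, 11.28 and 12.24 in NmatCpat lambs, against 8.91, 9.69, 10.13 and 10.74 in NmatNpat lambs, and its interval (-0.16 to 2.43) reached 0. HP was past the thresholds in 4 of 19 alternatives, with trended variances, with the animal number as a block, without NmatCpat animal 1 (1.48) and without NmatNpat animal 4 (1.43). MYB passed without NmatNpat animal 3 (-0.99), PRDX2 without NmatCpat animal 1 (-0.60) and CA13 without NmatCpat animal 2 (0.73).

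**Figure D4:**
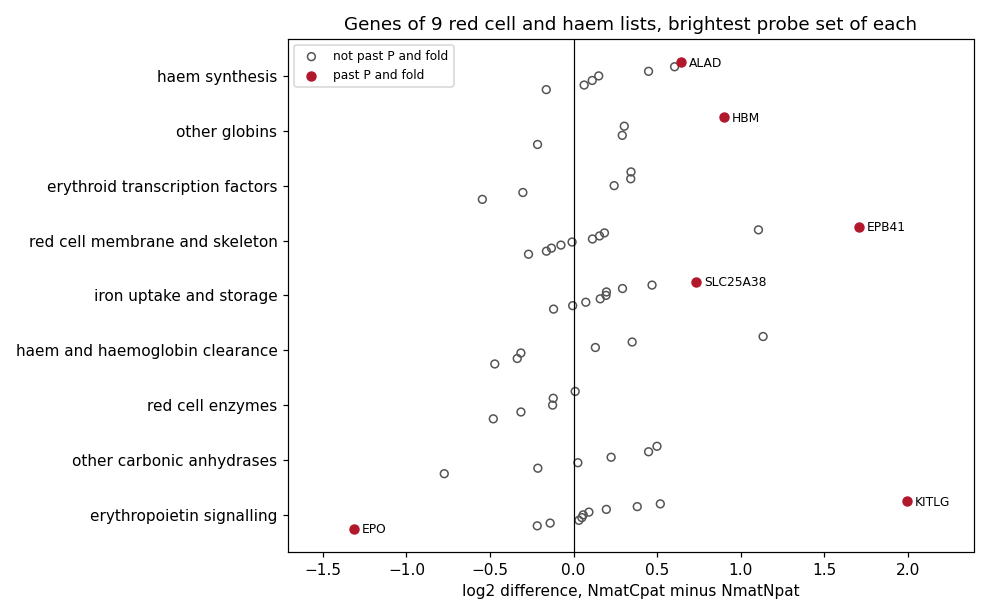
NmatCpat minus NmatNpat difference in log2 signal (horizontal axis) of the 63 genes of 9 lists (rows), each point the brightest probe set of 1 gene, filled where past P of at most 0.05 and a fold over 1.5. The filled points are ALAD, HBM, EPB41, SLC25A38 and KITLG on the right, at 0.65 to 1.996, and EPO on the left, at -1.31.

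Markers of other cells that a fat sample can hold were read in the same way, and none of the marker genes was past the thresholds on its brightest probe set with all 8 lambs and no offset. The 3 platelet markers were all higher in NmatCpat lambs (median 0.40, PF4 at 0.89), with mean deviations of -0.23 to 0.62 in NmatCpat lambs, against -1.05 to 0.28 in NmatNpat lambs. On their brightest probe sets the 4 lymphocyte markers were all lower (median -0.52, CD3D at -0.76). Their mean deviations were -0.61 to 0.15 in NmatCpat lambs, against -0.14 to 0.58 in NmatNpat lambs. The other CD3D probe set differed by 0.77, and with both averaged CD3D differed by 0.0058. CD79A was dim, with means of 2.11 in NmatCpat and 2.56 in NmatNpat lambs. PTPRC read 2.46 in NmatCpat animal 1, against 4.91 to 5.78 in the other NmatCpat lambs. No direction is therefore given for lymphocytes as a set. Markers of neutrophils and monocytes were split 2 and 2 (median 0.04, CD14 at 0.23). The medians were -0.06 for adipocytes (LIPE at -0.17), -0.11 for mast cells (KIT at -0.14), -0.001 for kidney (SLC12A3 at 0.21), -2.60 for neurons (NEFL at -4.16), 1.02 for skeletal muscle (ACTA1 at 1.37), 0.11 for adrenal cortex (CYP17A1 at 0.79) and -0.24 for liver (ALB at -0.09). With the offset ACTA1 was past the thresholds at 1.27. Over 19 alternatives ACTA1 was past them in 6, among them the fits without NmatNpat animal 1 (1.72) or 4 (1.64). NEFL was past them in 2, among them the fit without NmatNpat animal 2 (-5.35). Without NmatNpat animal 1, the lamb with the high neuronal signals, NEFL differed by -2.16 and was not past the thresholds. PF4 was past them in 2 of 18, among them the fit without NmatNpat animal 1 (1.19). Of the 8 dimmer ALB probe sets, 2 were past the thresholds, at -3.83 and -3.69, as was the mean of all ALB probe sets, at -0.90, and a dimmer LIPE probe set passed at -0.73. The part of blood left in the tissue, or of these cells, in the AHSP difference was not tested.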

How the data were processed

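The deposited intensity values were made by the authors with MAS5 (version: not given in the sources used here). The paper's methods name quantile normalization, but the deposited columns are linear and do not share quantiles, so log2 values were quantile-normalized here over 24128 probe sets. The 112 controls were then dropped, and the fit was made with lmFit and eBayes of limma 3.58.1 (R 4.3.3), genotype being the single term, on the remaining 24016 probe sets, with Benjamini-Hochberg adjustment over all of them. Intervals are moderated and at 95%; correlations have exact permutation p over pairings. The 4 arrays per genotype limit the precision. Medians of the deposited signal were 65.3 to 72.6, and pairs of arrays correlated at 0.891 to 0.923.

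Gene symbols come from the old platform annotation: 13292 probe sets had 1 symbol, 86 several and 10638 none. Members and lists were chosen with earlier results of these data known. The genes named were the members, per list the gene with the smallest p and up to 3 others past the thresholds, and the 8 probe sets most like HBG and AHSP. Other genes named (FECH, ALAS1, TFRC, SLC25A37, HBE1, MB, CYGB, SOCS2, RHAG, EPB42, FABP4 and LEP) were chosen after their values were seen. Alternatives were other variance models, array weights, other normalizations, offsets of 1 and 16, filters on dim or cross-matching probe sets, other thresholds, a block by animal number, single lambs left out, and the mean of all probe sets. Added after seeing the data were a fit of 6 lambs, leaving out NmatNpat animal 1 with NmatCpat animal 4, and counts over the 9 lists. Scripts were tested on simulated data.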

Additional observations from a re-analysis of the deposited data

Results flagged for a closer look

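Within a genotype, a lamb was marked where its gap to the nearest other lamb was a larger share of the genotype's range than Dixon's 95% critical value for 4 samples. Chance marks about 1 in 20 groups. Of the 30 groups of member probe sets none was marked, and 5 of all 70 groups of named probe sets were. MYB, a transcription factor of early blood precursors, read 3.166 in NmatNpat animal 3, against 4.854 to 5.035 in the other NmatNpat lambs. PRDX2, an antioxidant enzyme abundant in red cells, read 11.12 in NmatNpat animal 1, against 10.53 to 10.55 in the other NmatNpat lambs. That array also carried the neuronal transcripts, and a link between them was not tested. Without that lamb the PRDX2 difference was -0.34. The other 3 were all low values of NmatCpat animal 3: EPO read 0.8923 against 1.265 to 1.324, KITLG read 7.551 against 7.973 to 8.018, and the lipase LIPE read 12.23 against 12.56 to 12.62 in the other NmatCpat lambs. The KITLG value of that lamb was still above every NmatNpat lamb.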

How the results depend on the processing

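With 4 lambs per genotype and dim signals, moderate changes of most members were not detectable. Across 22 alternatives HBA kept its direction wherever it was fitted. The count of all probe sets past the thresholds, 943, was 626 without moderated variances, 244 above the median mean, 602 at a fold over 2, 210 at P of at most 0.01, and 979 to 1052 with 1 lamb left out. Probe sets with an adjusted p under 0.05 were 0, but 1 with trended variances, the offset of 16 or the filter on the mean, and 0 to 2 with 1 lamb left out. The 1 member probe set past the thresholds became 0 above the median mean, where 3 members were fitted, and 0 at P of at most 0.01, and 1 to 3 with 1 lamb left out. The 6 list genes became 3 without moderation, with the offset or at a fold over 2, 2 above the median mean, 1 at P of at most 0.01, and 3 to 7 with 1 lamb left out.

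With 1 lamb left out, the difference ran from -0.58 to 0.27 for ALAS2, -0.81 to 0.43 for GATA1, -0.059 to 0.39 for SLC4A1, and -0.10 to 0.60, -0.35 to 0.20 and -1.05 to 0.45 for the 3 brightest HBB probe sets. Over the same fits r ran from -0.0034 to 0.84 for HBG with AHSP, -0.13 to 0.32 for AHSP with HBB and -0.65 to 0.038 for AHSP with HBA. Without NmatNpat animal 1 and NmatCpat animal 4 the sign turned for the third HBB probe set (0.38), ALAS2 (0.15), GATA1 (0.48), CA2 (-0.0072), CD14 (-0.10), and r of AHSP with HBG (-0.085) and with HBB (-0.18). With all probe sets of a gene averaged it turned for the median of the 9 genes (-0.088), HBB (-0.24), EPOR (-0.35), CA13 (-0.073) and CD3D (0.0058). The cause was not tested.

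The labels do not say whether lambs with the same animal number belong together. Same-numbered lambs had correlations of deviations from their genotype means of -0.01 to 0.05. Of the NmatCpat lambs, 3 of 4 correlated best with the NmatNpat lamb of their own number. These values do not settle whether the numbers mark pairs. With the number as a replicate block 1124 probe sets, 1 member probe set and 7 list genes were past the thresholds.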
